A study of Mus musculus with 38 samples.

Results

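The genes of the mitochondrial respiratory chain and ATP synthase were followed over all 12 groups of arrays in a study of mouse cortex and mouse glioma. The members were every gene on the array whose symbol starts with Nduf, Uqcr, Atp5 or Cox4 to Cox8, together with Sdha, Sdhb, Sdhc and Sdhd, without pseudogenes. The set was chosen with earlier results of these data known, and its members follow from their names alone. They numbered 77 of 15644 genes measured. By role there were 42 genes of complex I (5 core subunits, 29 accessory subunits and 8 assembly factors), 4 of complex II, 6 of complex III, 15 of complex IV and 10 of ATP synthase. A gene was tested where its level was above log2 50 (5.64, here called the dim limit) in at least 3 arrays, and 74 members passed. The other 3, Cox4i2, Cox8c and Ndufa4l2, were dim in all 38 arrays.

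The study used translating ribosome affinity purification, which pulls down tagged ribosomes from 1 cell type of a transgenic mouse with the RNA they are reading ("bound RNA"), and set it beside total RNA of the same tissue. From cortex of adult mice without tumours came bound RNA of neurons (reporter line Snap25), astrocytes (Aldh1L1), mature oligodendrocytes (Cnp1), oligodendrocyte progenitors (Pdgfra) and oligodendroglia (Olig2, here "cortical Olig2 cells"), each on 3 arrays, and total RNA on 5 arrays. From dissected tumours of 3 variants of a mouse glioma model, labelled Pdgf, Pdgf Cre and Recruited, came total RNA and the bound RNA of Olig2 cells, again on 3 arrays each. Cortical cell types were collected from pools of at least 2 mice; for tumours no pooling is stated, and the alleles behind the names Pdgf, Pdgf Cre and Recruited are not given in the sources used here. All mice were of mixed C57BL/6J, FVB and Swiss-Webster background, and every RNA was amplified in 2 cycles before it was labelled with biotin. Each population is defined by the gene that drives its tag. In cortex and Recruited tumours, bound RNA of Olig2 cells carried all progenitor and myelin markers above the dim limit. It also carried 7 and 8 of 9 astrocyte markers there, beside 6 in mature oligodendrocytes and in progenitors. In Pdgf and Pdgf Cre tumours it carried all progenitor markers, but myelin markers summed to 11.89 to 12.96, below cortex total RNA (13.24 to 13.47).

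The respiratory chain passes electrons from NADH (complex I) and succinate (complex II) through complex III to oxygen at complex IV and pumps protons across the inner mitochondrial membrane, and ATP synthase uses the returning protons to make ATP. Most subunits are nuclear genes, and their messages are translated in the cytosol before import. Neurons depend heavily on this route, whereas mature oligodendrocytes and many tumours are known for strong glycolysis. Several complex IV subunits and the c subunit of ATP synthase exist as isoforms from separate genes, some of them typical of heart, skeletal muscle or testis.

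Some promoters of these genes carry binding sequences of the nuclear factors NRF1 and YY1, and the members that hold them are shown to set the letters beside the levels that follow. RefSeq promoter windows of equal length around the start (build GRCm38.p6) were matched for 62 members. The NRF1 motif, a palindrome of 10 letters that reads the same on both strands and stands in capitals below, lay in the window of 6 members (9.68%) against 1.07% of all 27025 genes. Searched on both strands, AAGATGGCG of YY1 was found in 8 members (12.9%) and 1.64% of all genes. CCGGAAGT of ETS factors was found in 2 members (3.23%, all genes 4.31%), and TCAAGGTCA of the estrogen-related receptors in 2 (3.23%, all genes 0.466%). A match is a description of letters and not of a bound factor. Capitals mark the NRF1 motif, each stretch being given 5′ to 3′ on the strand of the gene.
Atp5k, chr5:108434415-108434474, minus strand: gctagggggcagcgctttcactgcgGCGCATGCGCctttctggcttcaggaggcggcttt
Cox6a1, chr5:115349086-115349145, minus strand: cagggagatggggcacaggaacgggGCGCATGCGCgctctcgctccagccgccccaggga
Ndufa11, chr17:56717677-56717736, plus strand: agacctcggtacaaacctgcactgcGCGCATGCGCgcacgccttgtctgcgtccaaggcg
Ndufaf4, chr4:24897945-24898004, plus strand: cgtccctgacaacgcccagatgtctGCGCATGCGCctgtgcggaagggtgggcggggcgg
Ndufaf5, chr2:140170652-140170681, plus strand: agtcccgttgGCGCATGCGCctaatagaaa
Uqcrc1, chr9:108936668-108936697, plus strand: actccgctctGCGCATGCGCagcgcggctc

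The YY1 letters lay just after the start in 7 of the 8 members. Their ATG is part of the motif itself, and whether it is a start codon was not checked. Of these stretches 4 are given in the same way.
Ndufs4, chr13:114388045-114388074, minus strand: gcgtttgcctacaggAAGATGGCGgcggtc
Ndufc1, chr3:51408914-51408943, minus strand: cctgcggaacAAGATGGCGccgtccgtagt
Ndufa9, chr6:126849096-126849125, minus strand: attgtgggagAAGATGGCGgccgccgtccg
Atp5j2, chr5:145191499-145191528, minus strand: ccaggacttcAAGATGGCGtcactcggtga

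Levels are log2 array signals, scaled so that the 38 arrays share 1 distribution, and compare a gene between groups but not 1 gene with another. The deposited values had been made group by group, so the scale between groups is not fixed by the data, and each comparison is therefore also given on the deposited values and on values scaled by the 18 spike-in probe sets. "Called" means an adjusted p under 0.05 by limma (Benjamini-Hochberg over 9799 genes) and a change of at least 2-fold. Where 1 group was dim, the fold is a lower bound against the dim limit, and where both were dim no fold is given. Nothing in the labels says that the arrays of 1 tumour group came from separate animals, so p-values measure the spread between these arrays, which may be partly technical. The median member SD over replicates was lowest in neurons (0.038) and highest in Recruited total RNA (0.34), and lay between 0.065 and 0.185 in the other groups. The glial lines carried their markers: in their own bound RNA, 9 of 9 astrocyte, 9 of 9 myelin and 10 of 10 progenitor markers were higher than in cortex total RNA. In neuron bound RNA all 9 neuron markers were above the dim limit, but none was called against cortex total RNA, and their summed level was 16.04 to 16.14 beside 15.95 to 16.20. Neuron markers were not purged elsewhere, with 8 of 9 above the dim limit in both mature oligodendrocytes and progenitors. Of 9 astrocyte markers, 7 passed it in cortical Olig2 cells (sum 14.68 to 14.77) and 8 in Recruited Olig2 cells (14.83 to 15.30). In mature oligodendrocytes (12.46 to 13.17), progenitors (12.10 to 12.84) and cortex total RNA (14.28 to 14.54) 6 passed it. Arrays of progenitors had the widest 3′ to 5′ signal difference of actin (6.48 ± 0.47 on the log2 scale), a measure of RNA length, against group means of 2.69 to 4.57 elsewhere.

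The members stood highest in bound RNA of neurons and astrocytes. The median over the 77 members was 12.97, 12.94 and 12.92 in the 3 neuron arrays and 12.93, 12.99 and 12.93 in the astrocyte arrays. It was 11.96 to 12.06 in mature oligodendrocytes, 12.12, 12.03 and 12.03 in progenitors and 11.88 to 12.29 over the 5 cortex total arrays. Neurons and astrocytes overlapped with each other, as mature oligodendrocytes, progenitors and cortex did. Cortical Olig2 cells lay higher, at 12.88, 12.78 and 12.58, and so did Olig2 cells of Pdgf tumours (12.83, 12.72, 12.56) and Pdgf Cre tumours (12.80, 12.87, 12.82). Olig2 cells of Recruited tumours lay a little lower at 12.42, 12.36 and 12.36. Total RNA of Pdgf tumours (12.23, 11.96, 12.13) and Pdgf Cre tumours (12.12, 12.26, 12.19) fell within the cortex range, and that of Recruited tumours was the lowest of all and spread widely, at 11.45, 11.11 and 11.88.

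**Figure D1:**
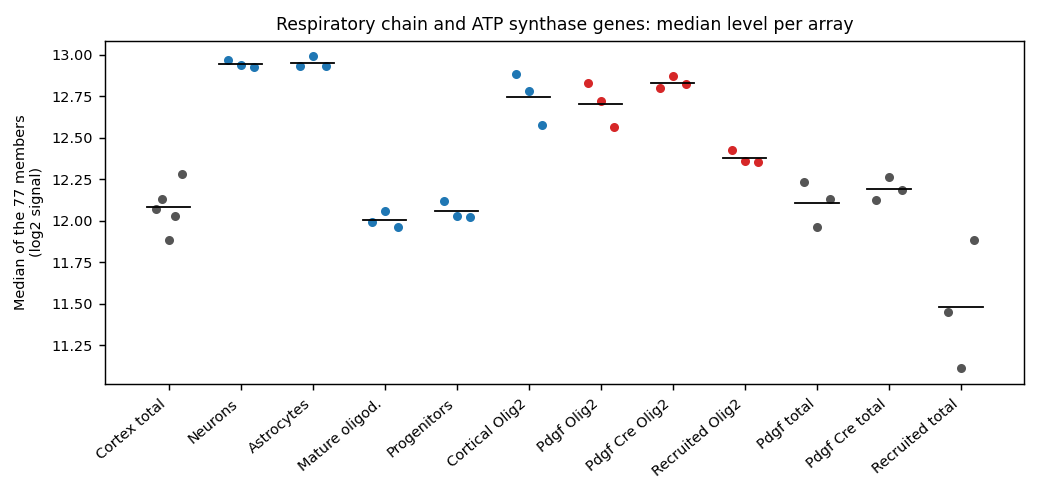
Median level of the 77 members on each of the 38 arrays (points, log2 signal after scaling to 1 distribution); lines are group means, blue is cortical bound RNA, red tumour bound RNA and grey total RNA. Neurons and astrocytes sit near 12.9, mature oligodendrocytes and progenitors between 11.96 and 12.12, and the Recruited total arrays between 11.11 and 11.88.

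Counted by gene, astrocytes held the highest group mean for 29 of the 74 members that rose above the dim limit somewhere, neurons for 17 and Olig2 cells of Pdgf Cre tumours for 11. The lowest mean lay in Recruited total RNA for 30 and in mature oligodendrocytes for 16. Of the 66 members above the dim limit in all 12 group means, the range between the highest and the lowest group had a median of 1.71 on the log2 scale and ran from 0.25 to 4.12; it was under 1 for 6 and over 2 for 26. Apart from Cox4i2 and Ndufa4l2, which lay between 2.08 and 2.09 on every array, the steadiest members were Atp5g3, a gene of the ATP synthase c subunit (14.44 to 14.69), the complex IV subunit Cox6c (14.14 to 14.76) and the complex I subunit Ndufb6 (12.86 to 13.55). The widest ranges belonged to Cox7a1 (2.43 to 9.30), Cox6a2 (2.08 to 8.23), Cox8a (3.35 to 9.45), Ndufb2 (5.64 to 11.47) and Cox6b2 (2.08 to 7.17). Of these 5, 4 were complex IV subunits that exist as isoforms, while the fifth is an accessory subunit of the membrane arm of complex I. All 5 fell below the dim limit in at least 1 group, so these ranges are not sizes of a difference and their order rests partly on dim values. Among the members above the dim limit in all 12 group means, the widest range was that of Ndufa7, an accessory subunit of complex I (6.44 to 10.56).

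**Figure D2:**
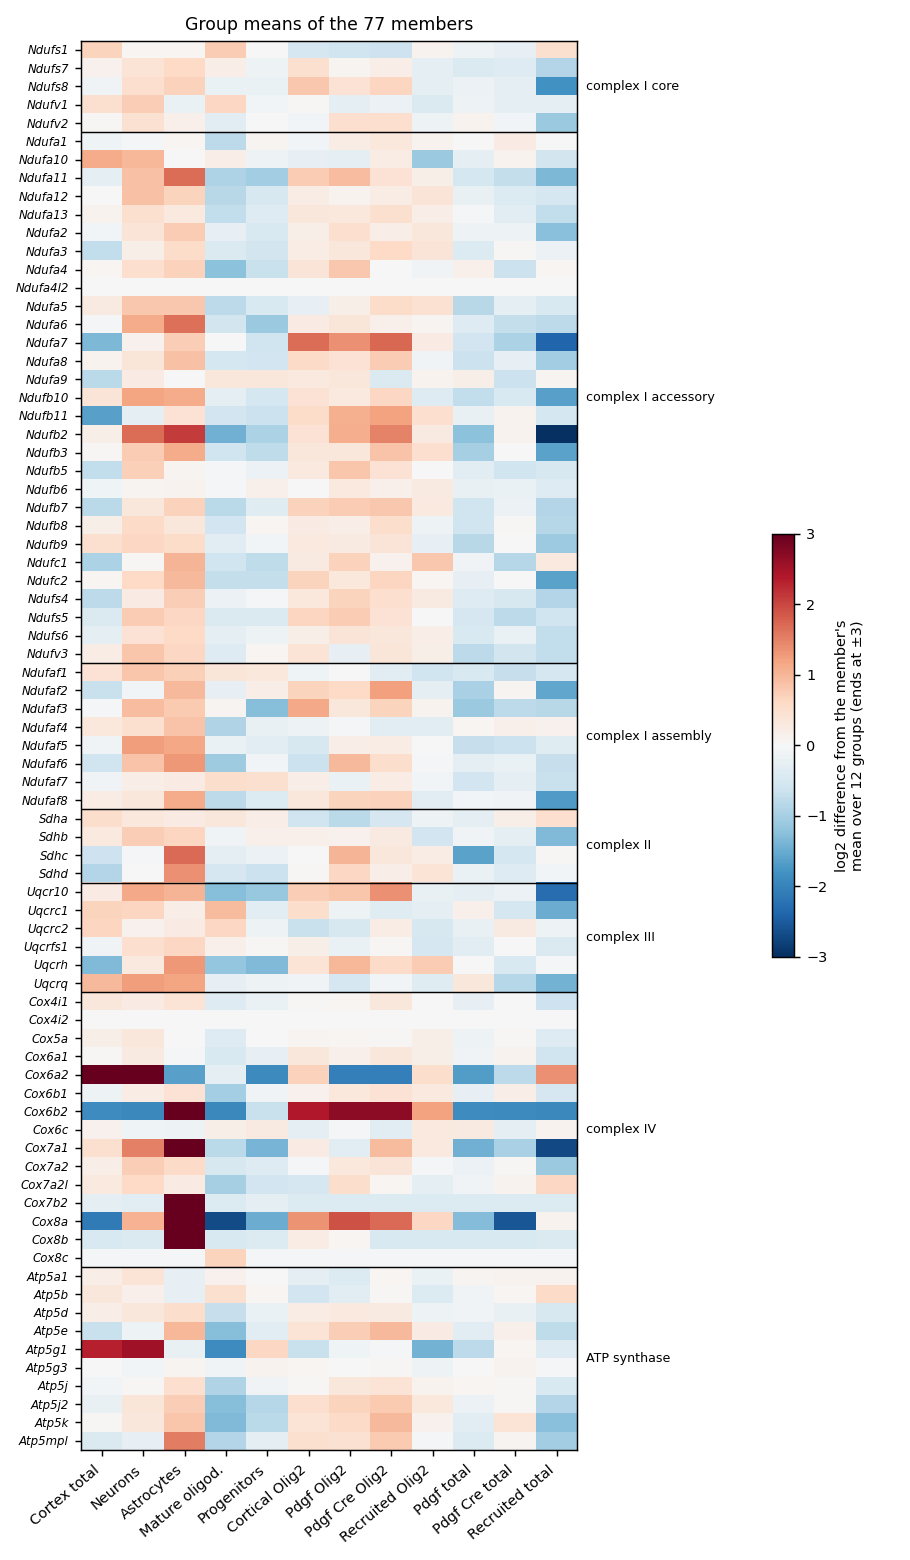
Group means of the 77 members (rows, by class) in the 12 groups (columns), coloured by the log2 difference from each member's mean over the groups, red higher and blue lower, with colours ending at 3 either way. Most complex I and ATP synthase rows are red in neurons and astrocytes and blue in mature oligodendrocytes and Recruited total RNA, while Cox6a2, Cox6b2, Cox7a1, Cox8a and Atp5g1 follow patterns of their own.

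The isoforms of complex IV differed by cell type. Cox7a1, the isoform of heart and skeletal muscle, read 9.27, 9.36 and 9.29 in astrocytes, 6.55, 6.71 and 6.68 in neurons and 5.23 to 5.85 in cortex total RNA. Every other cortical and tumour array gave less than the neuron arrays, and the dim limit was passed otherwise only in Olig2 cells of Pdgf Cre tumours (6.07, 6.09, 6.08) as a group. Its paralog Cox7a2, found in most tissues, differed far less, from 13.28 ± 0.26 in Recruited total RNA to 15.13 in neurons. Cox7a2l, which takes part in supercomplexes of the chain, ranged between 8.42 ± 0.16 in mature oligodendrocytes and 10.04 ± 0.31 in Recruited total RNA.

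Cox6a2, also a muscle isoform, was highest in neurons and in cortex total RNA. It read 7.86, 8.08 and 8.74 in neurons and 7.31 to 8.15 in cortex total RNA, and between 2.21 and 5.23 in all 12 glial cortical arrays. In Olig2 cells of Pdgf and Pdgf Cre tumours it sat at the array floor of 2.08 on all 6 arrays. Recruited tumours split by replicate: the bound arrays read 3.87, 3.9998 and 6.11 and the total arrays 4.76, 4.56 and 7.23, replicate 3 being the high one both times. Neuron markers summed to 16.40 in total replicate 3 against 15.04 and 14.94 in the other total arrays. In the bound arrays they summed to 12.52 in replicate 3 against 12.24 and 11.98, a narrow spread beside that of Cox6a2. The part of neurons in these values was not tested. The ubiquitous isoform Cox6a1 stayed between 14.48 and 15.41 in all group means.

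Cox6b2, the testis isoform, was above the dim limit in astrocytes and most Olig2 cells. It read 7.15, 7.21 and 7.15 in astrocytes, 6.75, 6.46 and 6.06 in cortical Olig2 cells, 6.78, 6.66 and 6.66 in those of Pdgf tumours and 6.72, 6.76 and 6.59 in those of Pdgf Cre tumours. Recruited Olig2 cells were lower and uneven at 5.42, 4.29 and 5.99. All neuron, mature oligodendrocyte and total RNA arrays read between 2.08 and 2.20, and progenitors 3.45, 3.44 and 3.16, so neither of the oligodendrocyte lines matched the Olig2 line for this gene. Astrocyte markers summed to 14.68 to 14.77 in cortical Olig2 cells, 12.46 to 13.17 in mature oligodendrocytes and 12.10 to 12.84 in progenitors. In Pdgf and Pdgf Cre Olig2 cells, where Cox6b2 also passed the dim limit, they summed to 12.06 to 13.41. Their part in its level was not tested. Cox6b1, the isoform of most tissues, fell in mature oligodendrocytes by 1.24 ± 0.10 (SE) on the log2 scale against neurons, or 2.36-fold (limma adjusted p = 4.23e-12).

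Cox8a, the common isoform of the smallest subunit, was above the dim limit in 6 of the bound groups and in Recruited total RNA. Astrocytes read 9.64, 9.06 and 9.66, Pdgf Olig2 cells 8.22, 7.83 and 7.78, Pdgf Cre Olig2 cells 7.98, 7.53 and 7.67, cortical Olig2 cells 7.55, 7.75 and 6.84, and neurons 7.05, 7.05 and 7.08. Cortex total RNA gave 3.57 to 5.14, mature oligodendrocytes 3.35, 3.35 and 3.34 and progenitors 4.52, 4.53 and 4.59. Recruited total RNA was the exception among total samples at 6.14, 5.67 and 6.61. The muscle isoform Cox8b (6.29, 6.47, 5.90) and Cox7b2 (6.66, 6.25, 6.96) passed the dim limit in astrocytes and in no other group. The testis isoform Cox8c and the lung isoform Cox4i2 were dim throughout, whereas Cox4i1 ran from 13.76 ± 0.37 in Recruited total RNA to 14.79 ± 0.10 in astrocytes.

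In ATP synthase the isoform pattern was that of Atp5g1, which encodes the same mature c subunit as Atp5g3 with another import sequence. It read 7.37 on all 3 neuron arrays and 7.07, 6.87, 7.88, 6.99 and 6.89 in cortex total RNA, and was dim in each of the other 10 groups, from 2.91 in mature oligodendrocytes to 5.46 in progenitors. Atp5g3 meanwhile kept within 0.25 over all groups, as given above.

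**Figure D3:**
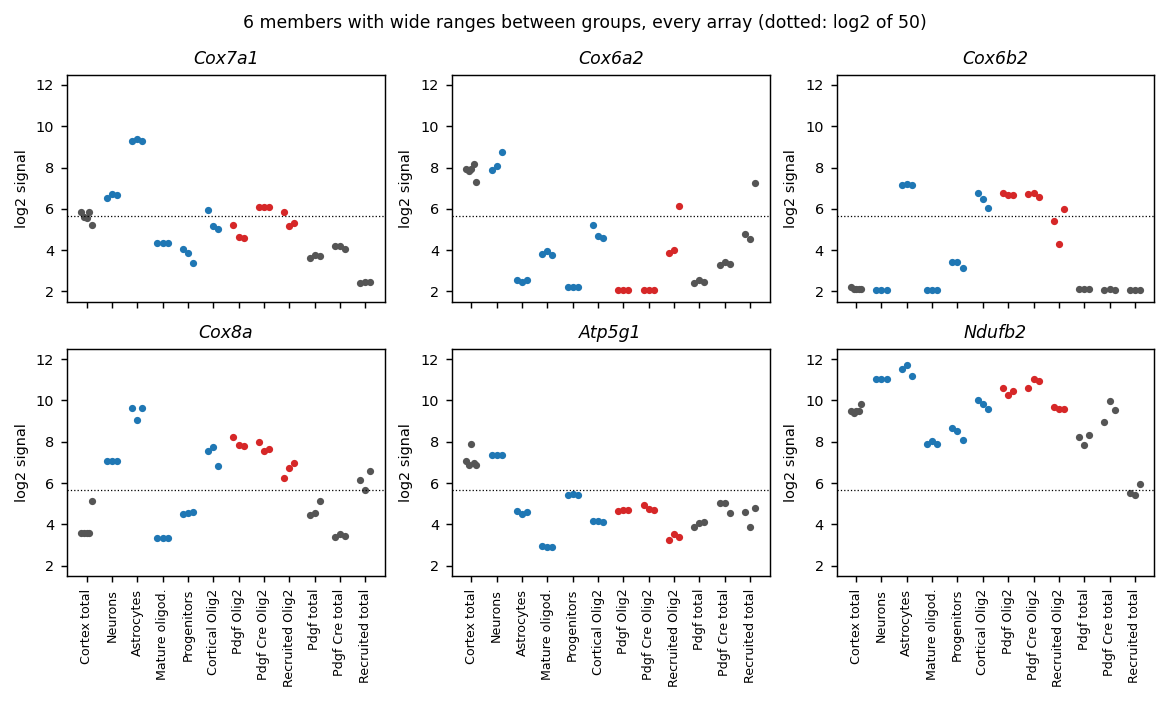
Level of Cox7a1, Cox6a2, Cox6b2, Cox8a, Atp5g1 and Ndufb2 on every array (log2 signal; the dotted line is the dim limit of 5.64), blue for cortical bound RNA, red for tumour bound RNA and grey for total RNA. Cox6a2 and Atp5g1 are high in cortex total RNA and neurons, Cox6b2 in astrocytes and Olig2 cells, and Ndufb2 drops to 5.44 to 5.95 in Recruited total RNA.

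Bound RNA of neurons was compared with cortex total RNA to see how the chain stands in this cell type. Of 74 members 15 were higher and none lower, that is 20.3% higher against 13.4% of all genes tested, with 14.8% of all genes lower. By the same limma test 48 members passed at an adjusted p under 0.05 without a fold limit. The calls were 10 complex I accessory subunits, 2 assembly factors, Uqcrh of complex III, and Cox8a and Cox7a1. Ndufb2 rose from 9.39 to 9.82 in the 5 cortex arrays to 11.05, 11.05 and 11.06, which is 2.87-fold (adjusted p = 1.13e-08). The accessory subunit Ndufb5 rose 2.71-fold, the assembly factor Ndufaf6 2.74-fold and Uqcrh, the hinge protein, 3.11-fold. Cox8a was at least 2.67-fold higher. No core subunit of complex I, no complex II gene and no ATP synthase gene was called on this scale. Some of each did pass without the fold limit. Among them were Ndufv2 (0.43 on the log2 scale), Sdhd (0.89) and Atp5j2 (0.57), higher in neurons, and Ndufs1 (-0.60), lower. The members' median difference was 0.43 (all genes 0.03), and 1.37 on deposited values (all genes 0.66) and 0.93 with spike-in scaling (all genes 0.23); the calls then numbered 60 and 34, all higher, and 14 of the 15 were shared by the 3 scales.

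Astrocytes against cortex total RNA gave 24 members higher and 3 lower. The shares, 32.4% and 4.05%, compare with 31.1% and 29.8% of all genes, so on this scale a rise was about as frequent as in the genome at large and a fall rarer. The frequency of a rise depended on the scale. Deposited values gave 45 members higher and 2 lower, beside 29.7% and 32.3% of all genes. Spike-in scaling gave 22 and 3, beside 21.4% and 41.4%. Complex II was divided: Sdhc, a membrane anchor, rose from 10.17 to 10.66 in cortex to 12.92, 12.32 and 12.92, or 4.93-fold (adjusted p = 1.14e-11), and the other anchor Sdhd from 9.47 to 10.85 to 12.22, 11.80 and 12.46, or 4.79-fold. The flavoprotein subunit Sdha differed by -0.28 and the iron-sulfur subunit Sdhb by 0.35 on the log2 scale, and neither was called. Uqcrh rose 6.25-fold, to 14.19, 14.17 and 14.23. The isoforms Cox8a and Cox7a1 were at least 14.01-fold and 12.65-fold higher. Lower were Cox6a2 (at least 4.54-fold), Atp5g1 (at least 2.82-fold) and the accessory subunit Ndufa10 (2.11-fold). The last missed the fold limit on deposited values, with -0.57 on the log2 scale. The median difference of 0.73 (all genes 0.01) was 1.28 on deposited values and 0.71 with spike-in scaling, where all genes had -0.57.

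Set directly against neurons, astrocytes had 11 members higher and 2 lower, with 27.6% and 29.3% of all genes called. The 11 were Cox6b2, Cox7b2, Cox8b, Cox7a1 (6.32-fold, adjusted p = 3.89e-13), Cox8a (5.25-fold), Atp5mpl, a small ATP synthase subunit (3.45-fold), Sdhc (3.36-fold) and Sdhd (2.59-fold), and, named after the values were seen, Atp5e, Ndufaf2 and Uqcrh. Cox7b2 and Cox8b passed the filter on low values through the 3 astrocyte arrays alone, so their calls here and against cortex follow from that filter and count as a description. Cox6a2 and Atp5g1 were the 2 lower, by at least 6.001-fold and 3.30-fold. The members' median depended on the scale, at 0.16, but -0.26 on deposited values and -0.40 with spike-in scaling, while that of all genes moved to -0.65 and -0.79; the calls there were 6 higher and 7 lower, and 5 higher and 11 lower. Sdhc, Atp5mpl, Cox7a1, Cox8a and Cox6b2 were called higher on all 3 scales, and Cox6a2 and Atp5g1 lower.

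Mature oligodendrocytes were next set against neurons. Of 74 members 32 were lower in mature oligodendrocytes and none higher, 43.2% against 27.6% of all genes lower and 23.3% higher. All 3 scales called 30 of the 32 lower, and none called a member higher; deposited values gave 51 lower and spike-in scaling 30. At an adjusted p under 0.05 with no fold limit, limma passed 56. The median was -0.82 (all genes -0.05), -1.29 on deposited values (all genes -0.39) and -0.75 with spike-in scaling (all genes 0.15).

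The fall was unequal over the complexes. Lower were 14 of 28 accessory subunits and 4 of 8 assembly factors of complex I, 3 of 6 complex III genes, 6 of 13 complex IV genes and 5 of 10 ATP synthase genes, but none of the 5 core subunits of complex I and none of the 4 complex II genes. Class medians ran from -1.06 for the accessory subunits to -0.38 for complex II and -0.20 for the core subunits. Ndufb2 read 7.89, 8.03 and 7.88 against 11.05 to 11.06 in neurons, an 8.69-fold fall (adjusted p = 1.07e-14). Uqcr10, a small complex III subunit, read 10.01, 10.54 and 9.69 against 12.45, 12.45 and 12.57, or 5.31-fold lower (adjusted p = 4.31e-08). Atp5g1, Cox6a2, Cox8a and Cox7a1 were lower by at least 3.30-fold, 6.001-fold, 2.67-fold and 2.00-fold. In none of these 6 genes did the arrays of the groups overlap, as in 65 members and in 87.5% of all genes. At the other end, the core subunit Ndufs1, which holds iron-sulfur clusters of complex I, differed by 0.69 ± 0.18 (SE) on the log2 scale in favour of mature oligodendrocytes, below the fold limit.

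**Figure D4:**
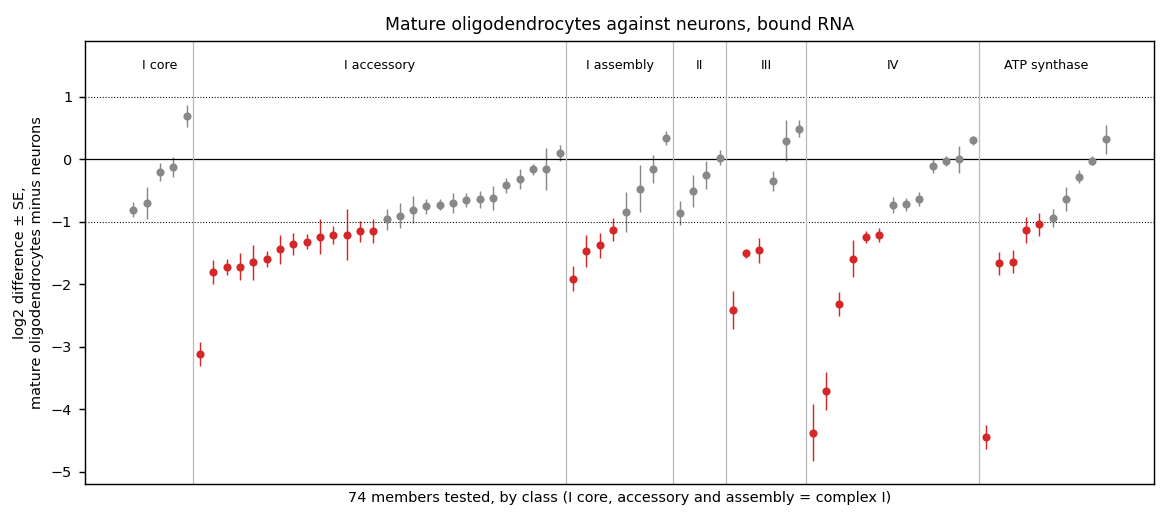
Difference between mature oligodendrocytes and neurons for the 74 members tested (points, log2 scale, bars ± SE from limma), by class; red points were called lower and dotted lines mark 2-fold. None lies above the upper line, and the 32 red points reach -4.44.

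Of the 6 members with the NRF1 letters, Atp5k, Ndufa11, Ndufaf4 and Ndufaf5 were among the 32, by 3.17-fold, 3.48-fold, 2.59-fold and 2.76-fold, and Cox6a1 and Uqcrc1 were not called. Of those with the YY1 letters, Atp5j2 (3.11-fold) and Ndufaf8 (2.18-fold) were among them. These genes were picked for their letters, and no share is tested here.

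Against cortex total RNA, mature oligodendrocytes had 3 members higher and 13 lower (25.2% and 27.7% of all genes). Atp5g1 and Cox6a2 were lower by at least 2.82-fold and 4.54-fold, Ndufb2 by 3.03-fold, Uqcr10 by 2.88-fold, Atp5k by 2.57-fold and Ndufa4 by 2.45-fold. Ndufa4 is now assigned to complex IV, but by its symbol the class counts here keep it with the accessory subunits of complex I. Higher were Ndufa7 (2.5003-fold), Ndufa9 (2.24-fold) and Ndufb11 (2.05-fold). The balance rested on the scale: deposited values gave 6 higher and 6 lower and spike-in scaling 7 and 5, where Atp5k (-0.78 and -0.67) and Ndufa4 (-0.71 and -0.61) fell short of 2-fold, as Uqcr10 did on the spike-in scale (-0.94). The members' median was -0.43, -0.02 and 0.08 on the 3 scales. Leaving out mature oligodendrocyte replicate 2 put Ndufb11 at 0.998 on the log2 scale, just under the limit.

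Progenitors had 2 members higher and 10 lower than cortex total RNA (24.4% and 23.8% of all genes), and on the other scales 1 and 12. Cox6a2 was at least 4.54-fold and Atp5g1 at least 2.82-fold lower. Uqcr10 was 2.62-fold, Ndufa10 2.40-fold and the assembly factor Ndufaf3 2.36-fold lower. Cox7a1, lower, and Cox6b2, higher, were dim on both sides. Ndufa9 was 2.24-fold higher but under 2-fold on deposited values (0.92) and with spike-in scaling (0.92). Progenitors and mature oligodendrocytes are 2 stages of 1 lineage, and their bound RNA shared markers. All 9 myelin markers passed the dim limit in progenitors (sum 14.96 to 15.20, cortex total RNA 13.24 to 13.47). Progenitor markers summed to 15.07 to 15.23 in mature oligodendrocytes and to 13.12 to 13.57 in cortex total RNA. Progenitors against mature oligodendrocytes gave 3 members higher and 3 lower (18.8% and 19.9% of all genes), and 4 of these 6 were dim on both sides. The other 2, Ndufaf3 (7.68, 7.68, 7.88 against 9.11, 9.24, 9.03) and the complex III core protein Uqcrc1 (10.61, 10.69, 12.02 against 12.28, 12.31, 12.60), were 2.60-fold and 2.44-fold lower in progenitors. The median of 0.10 turned to -0.52 on deposited values and -0.63 with spike-in scaling, where 11 and 14 members were lower.

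Cortical Olig2 cells, labelled oligodendroglia, had 15 members higher and 7 lower than cortex total RNA (29.5% and 26.6% of all genes). Ndufa7, an accessory subunit of complex I, rose from 7.001 to 8.13 in cortex to 11.08, 10.41 and 10.02, or 8.13-fold (adjusted p = 2.56e-10), and Ndufb11 from 9.57 to 9.94 to 11.96, 11.92 and 11.71, or 4.48-fold. Uqcrh rose 3.37-fold, Ndufb7 2.83-fold and Cox8a at least 3.33-fold. Among the 7 lower were Uqcrc2 of complex III (2.47-fold), Ndufa10 (2.56-fold), the core subunit Ndufs1 (2.23-fold) and Sdha (2.17-fold), besides Atp5g1 and Cox6a2. All 7 were lower on the 3 scales, and 8 of the 15 higher. Spike-in scaling changed the balance to 8 higher and 9 lower.

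Tumour Olig2 cells stood close to the Olig2 cells of cortex for this set, but the 2 sides differed in their cell markers. Myelin markers summed to 16.56 to 16.64 in cortical Olig2 cells and to 11.89 to 12.96 in those of Pdgf and Pdgf Cre tumours. Cortical progenitors had member medians of 12.03 to 12.12, below the 12.56 to 12.87 of these tumour cells. Those 2 were not compared by gene here. Against cortical Olig2 cells, 3 members were called higher and 1 lower in Pdgf tumours, 5.41% against 32% of all genes in either direction (16% each way). In Pdgf Cre tumours it was 2 and 1, 4.05% against 36.1% (17.7% higher, 18.3% lower). In Recruited tumours it was none and 4, 5.41% against 27.5% (12.9% higher, 14.6% lower). Without a fold limit 28, 25 and 34 members passed at an adjusted p under 0.05 by limma, so small shifts were frequent, and the median differences were 0.10, 0.15 and -0.17. The last was 0.09 on deposited values and -0.22 with spike-in scaling, beside 0.23 for all genes on deposited values. For Pdgf Cre tumours deposited values gave 1 higher and 2 lower, and spike-in scaling 6 and 1.

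The assembly factor Ndufaf6 rose in Pdgf tumours, from 8.12, 7.92 and 8.11 to 9.83, 9.33 and 9.85, or 3.07-fold (adjusted p = 4.07e-08), and in Pdgf Cre tumours to 9.05, 9.40 and 9.22, or 2.25-fold. In Pdgf tumours Sdhc and Cox7a2l rose 2.03-fold each. Both lay at the limit: Sdhc was 0.93 on the log2 scale without Pdgf Olig2 replicate 2, and Cox7a2l 0.83, 0.96 and 0.88 without cortical Olig2 replicate 1, cortical Olig2 replicate 3 or Pdgf Olig2 replicate 1. Ndufb2 rose 2.08-fold in Pdgf Cre tumours, with 0.95 without cortical Olig2 replicate 3, 0.98 without Pdgf Cre Olig2 replicate 2 and 0.99 on deposited values. Cox6a2, the lower call in Pdgf and in Pdgf Cre tumours, was dim on both sides.

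In Recruited Olig2 cells Ndufa7 was 2.70-fold lower, at 9.07, 9.08 and 9.07 (adjusted p = 0.000688). Cox6b2 was lower by at least 1.72-fold, the core subunit Ndufs8 2.15-fold and Ndufaf3 2.04-fold. Without Recruited Olig2 replicate 2 only Ndufa7 was left, Cox6b2 being at -0.72, Ndufs8 at -0.82 and Ndufaf3 at -0.91; Ndufaf3 was also lost without cortical Olig2 replicate 1 (-0.99), without Recruited Olig2 replicate 1 (-0.87) and on deposited values (-0.69), as Ndufs8 was (-0.83). Fitted with only these 2 groups, Cox6b2 had an adjusted p of 0.111 by limma, and with spike-in scaling Ndufaf3 had one of 0.108. Myelin markers summed to 15.14 to 16.95 in Recruited Olig2 cells, 16.56 to 16.64 in cortical Olig2 cells and 11.89 to 12.96 in the Olig2 cells of the other tumours. In the same order astrocyte markers summed to 14.83 to 15.30, 14.68 to 14.77 and 12.06 to 13.41. Microglial markers summed to 8.38 to 12.81, 7.38 to 7.63 and 8.25 to 10.60. The part of these cells in the members' values was not tested.

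Between tumour models the Olig2 cells differed little in Pdgf Cre against Pdgf, where 1 member was higher and none lower, against 7.77% and 8.87% of all genes. That gene was Cox7a1, at 6.07 to 6.09 against 5.20, 4.63 and 4.59, or at least 1.35-fold; deposited values gave 1 higher and 2 lower. Recruited against Pdgf gave 1 higher and 6 lower (12.8% and 13% of all genes), and Recruited against Pdgf Cre 1 higher and 10 lower (17.5% and 17%). These comparisons share arrays with each other. Against Pdgf, Cox8a was 2.45-fold, Ndufa7 2.16-fold and Ndufaf6 2.04-fold lower. Against Pdgf Cre, Uqcr10 was 2.99-fold, Ndufaf2 2.83-fold, Ndufa7 2.80-fold and Ndufa10 2.51-fold lower. Cox6b2 was lower by at least 2.08-fold and 2.06-fold. The rest of the named calls, Cox6a2 higher and Atp5g1 lower in each, were dim on both sides. Without Pdgf Olig2 replicate 1 the 7 calls against Pdgf became 4, with Ndufa7 at -0.84 and Ndufaf6 at -0.95; Ndufaf6 was also under the limit without Pdgf Olig2 replicate 3 (-0.94), without Recruited Olig2 replicate 3 (-0.98) and on deposited values (-0.95). Without Recruited Olig2 replicate 2 Cox6b2 differed by -0.997 and -0.99, and fitted with only the groups compared its adjusted p against Pdgf was 0.0603 by limma. Ndufa10 lay just under the limit on deposited values. Against Pdgf Cre, deposited values gave 3 higher and 5 lower and spike-in scaling 1 and 21.

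Bound RNA of tumour Olig2 cells was higher in these genes than total RNA of the same tumours, which hold other cells as well. In Pdgf tumours 22 members were higher and none lower, 29.7% against 16.9% of all genes higher and 15.3% lower. In Pdgf Cre tumours 15 were higher and 1 lower, 20.3% against 20% (18.1% lower), and in Recruited tumours 22 higher and 1 lower, 29.7% against 24.1% (20.2% lower). Fixing the scale otherwise set the members further apart from other genes. On deposited values 20, 23 and 27 members were higher, with 2, 2 and 3 lower, while the share of all genes higher was 6.18%, 8.26% and 14.1%. With spike-in scaling 23, 31 and 18 were higher and none, 2 and 3 lower, beside 6.73%, 10.9% and 11.8% of all genes higher. The members' medians were 0.64, 0.58 and 0.73 in the 3 models, 0.64, 0.74 and 0.77 on deposited values and 0.74, 0.92 and 0.67 with spike-in scaling. All genes had 0.05, 0.13 and 0.13, but -0.34, -0.21 and -0.29 on deposited values.

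Complex I accessory subunits were the class with the most higher calls, 13 of the 22 in Pdgf, 8 of the 15 in Pdgf Cre and 10 of the 22 in Recruited tumours, from 28 tested, with class medians of 0.82, 0.84 and 0.91. Ndufa7 read 10.74, 9.83 and 10.00 in bound and 8.87, 7.83 and 8.06 in total RNA of Pdgf tumours (3.82-fold), 10.61, 10.53 and 10.53 against 7.36, 8.29 and 7.98 in Pdgf Cre (6.43-fold), and 9.07, 9.08 and 9.07 against 6.72, 5.86 and 6.74 in Recruited tumours (6.21-fold, adjusted p = 6.09e-08). In every model each bound array lay above every total array for this gene. Ndufb2 was 5.01-fold higher in Pdgf tumours and at least 15.87-fold higher in Recruited tumours, where total RNA read 5.52, 5.44 and 5.95. Ndufb3 was 4.28-fold higher in the latter.

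Outside complex I, Sdhc rose 6.11-fold in Pdgf tumours, from 9.31, 9.31 and 9.68 to 12.02, 12.24 and 11.87 (adjusted p = 3.72e-11). It was the only complex II gene called in any of the 3 models. Uqcr10 was 2.88-fold higher in Pdgf Cre and 4.15-fold in Recruited tumours. Cox8a was at least 4.92-fold and Cox6b2 at least 2.08-fold higher in Pdgf tumours, and at least 4.24-fold and 2.06-fold in Pdgf Cre tumours. In Recruited tumours Cox6b2 and Cox7a1 were dim on both sides, although called. The assembly factors Ndufaf2 (2.94-fold, Pdgf) and Ndufaf3 (2.72-fold, Pdgf Cre) also rose. The Pdgf Cre call of Cox7a1, at least 1.35-fold, was lost on deposited values (0.52) and with spike-in scaling (0.70). Microglial markers summed to 14.64 to 15.56 in total RNA of Pdgf and Pdgf Cre tumours and to 8.25 to 10.60 in bound RNA. In Recruited tumours the ranges met, at 12.81 to 15.77 in total and 8.38 to 12.81 in bound RNA. What other cells contributed to the total RNA level of each gene was not tested, and in such mixed samples fewer cells of a type and less RNA per cell cannot be told apart.

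**Figure D5:**
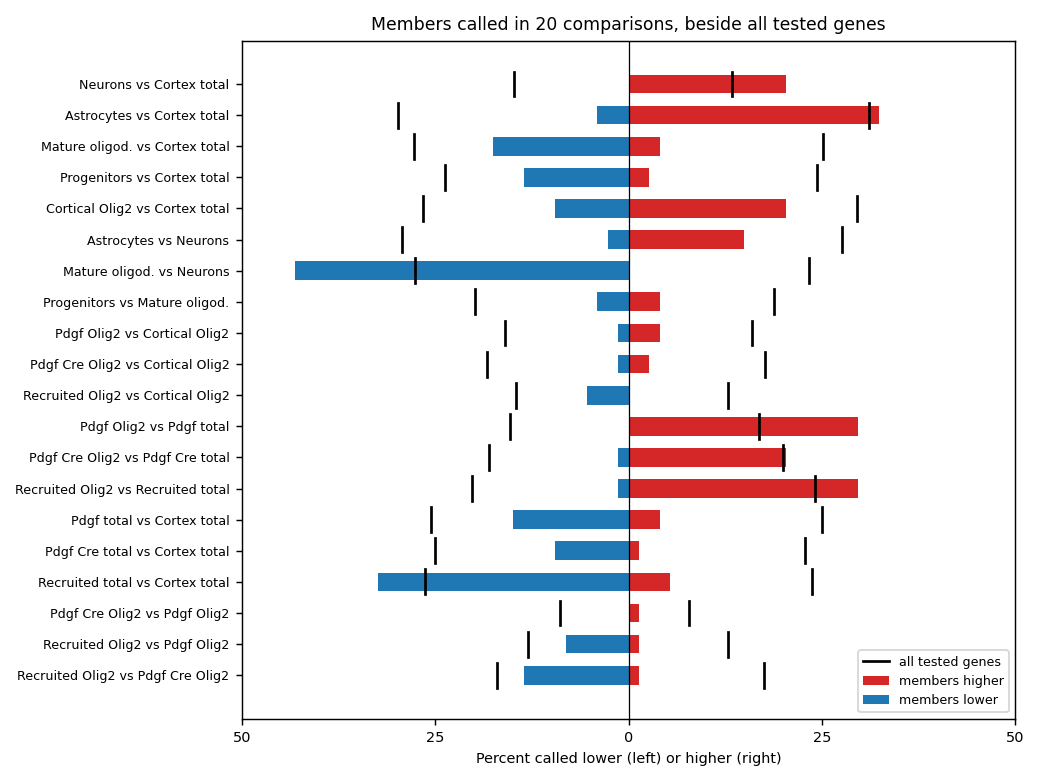
Percent of the 74 members called higher (red, right) or lower (blue, left) in 20 comparisons, with black marks for the percent of all 9799 genes. The lower bar passes its mark in mature oligodendrocytes against neurons (43.2% against 27.6%) and in Recruited total against cortex (32.4% against 26.4%); the higher bar does so clearly in Pdgf bound against total RNA (29.7% against 16.9%).

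Total RNA of tumours was compared with that of cortex to see the tissue as a whole. In Pdgf tumours 3 members were higher and 11 lower (25% and 25.5% of all genes), in Pdgf Cre tumours 1 and 7 (22.8% and 25%), and in Recruited tumours 4 and 24 (23.7% and 26.4%). These comparisons share the 5 cortex arrays. In the Recruited model the share of members lower was 32.4%, above that of all genes, and in the Pdgf and Pdgf Cre models it was 14.9% and 9.46%, below it. The difference between the models was not tested for this count. Median differences were -0.28, -0.16 and -0.62, then -0.13, -0.34 and -0.33 on deposited values and -0.44, -0.30 and -0.72 with spike-in scaling. On deposited values Pdgf tumours had 5 higher and 6 lower, and Recruited tumours 6 and 17.

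In Recruited total RNA Ndufb2 was lower by at least 14.82-fold. The complex III subunits Uqcr10 (9.08, 9.04, 9.10 against 11.44 to 11.74) and Uqcrq, the ubiquinone-binding subunit (8.44, 8.53, 8.40 against 10.82 to 10.88), fell 5.78-fold and 5.26-fold (adjusted p = 2.2e-09 and 2.64e-23). Lower were 11 of 28 accessory and 3 of 5 core subunits of complex I, 3 of 6 complex III genes and 3 of 13 complex IV genes, but 1 of 8 assembly factors, 2 of 10 ATP synthase genes and, of complex II, Sdhb alone (3.05-fold, 11.95, 11.61 and 12.44 against 13.50 to 13.73). Higher were Ndufb11 (2.14-fold), Ndufc1 (2.38-fold), Uqcrh (2.41-fold) and Cox8a (at least 1.41-fold); Ndufc1 was 0.99 on the log2 scale with spike-in scaling. In this group replicate 3 had the highest member median (11.88), the highest sum of neuron markers (16.40) and the lowest sum of microglial markers (12.81 against 15.77 and 14.66), and replicate 2 had the highest sum of pericyte and smooth muscle markers (14.16 against 10.94 and 11.85). The part of these cells in the members' levels was not tested.

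Pdgf and Pdgf Cre totals shared the fall of Atp5g1 (at least 2.82-fold) and Cox6a2 (at least 4.54-fold). Neuron markers, summed to 15.95 to 16.20 in cortex, were down to 13.32 to 14.62 in these tumours, and their part was not tested. In Pdgf tumours Ndufb2 was 2.65-fold, Ndufa10 2.58-fold and Ndufb9 2.47-fold lower, and Ndufb11 (2.65-fold), Uqcrh (2.51-fold) and Ndufa9 (2.00-fold) higher; Ndufb2 was -0.92 on deposited values, and Ndufa9 0.75 with spike-in scaling and 0.88 to 0.97 without cortex replicate 2, cortex replicate 3 or Pdgf total replicate 2. In Pdgf Cre tumours Uqcrq was 3.57-fold, Uqcrc1 2.32-fold and the assembly factor Ndufaf1 2.19-fold lower, and Ndufb11 3.28-fold higher; without Pdgf Cre total replicate 1 Uqcrc1 was at -0.97. Cox7a1 was dim on both sides in all 3 models.

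Genes around the chain were taken from lists outside the naming rule. The assembly factors for complexes II to V and further factors of complex I (24 tested) had 9 lower and none higher in mature oligodendrocytes against neurons, that is 37.5% lower beside 27.6% of all genes. In bound against total RNA 8 were higher and 1 lower in Pdgf tumours (33.3% higher, all genes 16.9%), 12 and 2 in Pdgf Cre (50%, all genes 20%) and 6 and 1 in Recruited tumours (25%, all genes 24.1%). In Recruited total RNA against cortex 1 was higher and 7 lower (29.2% lower, all genes 26.4%), so the shares in both Recruited comparisons were near those of all genes. The tricarboxylic acid cycle and pyruvate dehydrogenase genes (16 tested) had 1 higher and 2 lower, none, 1 and none, 1 and 2, and none and 2 in the same order. Their medians in the 3 bound against total comparisons were -0.13, 0.02 and -0.11, beside 0.77, 0.94 and 0.74 for the assembly factors. Cytochrome c (Cycs), which carries electrons from complex III to IV, read 7.92 in neurons, 7.68 in astrocytes and 7.49 in cortex total RNA and was under the dim limit in mature oligodendrocytes (4.37), in progenitors (5.64, just below it) and in all 3 tumour totals.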

How the data were processed

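RNA of 12 groups was measured on 38 one-colour Affymetrix mouse arrays of 16395 probe sets. The values are log2 expression values that the authors made with GCRMA, a background correction and summary of probes, per the submitters' processing notes; its version is not given in the sources used here. Each group had its own minimum in the deposited log2 values, so GCRMA was run group by group. The 64 control probe sets and 687 without a single gene were left out, which gave 15644 genes, 15617 of them matched to RefSeq by gene ID. No deposited column was unused. No 2 arrays of a group held the same values (highest correlation 0.999128).

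The deposited values were quantile normalized over the 38 arrays. The 9799 genes that reached log2 50 on 3 or more arrays were fitted with limma 3.58.1 in R 4.3.3 in 1 model of 12 groups with 26 residual degrees of freedom, with Benjamini-Hochberg adjustment over all genes tested; a call needed an adjusted p under 0.05 and a 2-fold change. The fit was tested on simulated data. The precision is limited by the number of arrays. Named in each comparison were up to 6 called members with the largest rise and 6 with the largest fall whose arrays do not overlap, the isoform genes, the 4 Sdh genes and the members with the 5 widest and 5 narrowest ranges; genes outside this rule are members of groups being counted or were named after their values were seen. The alternatives were the deposited values, scaling to 18 spike-in probe sets, no filter, a filter at log2 100, the adjusted p alone, only the groups compared, a trended robust prior, leaving out each array and a replicate block. Bound and total RNA of 1 tumour number deviated together (correlations of 0.473 to 0.626 in Pdgf, 0.428 to 0.621 in Pdgf Cre and 0.266 to 0.488 in Recruited tumours), so the numbers pair these samples. Motifs were searched with Python 3.11. The members and gene lists were chosen with earlier results of these data known.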

Additional observations from a re-analysis of the deposited data

Results flagged for a closer look

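Among the 5 cortex total arrays, 11 of 69 members checked had 1 array far from the other 4, measured by its gap to the nearest array over the whole range, where chance gives about 1 in 20. That is 15.9% of these members beside 15.3% of the 7387 genes above the dim limit in this group. Replicate 5 was that array for 9 of the 11, and for 51.2% of such genes. Its 3′ to 5′ signal difference of actin was 2.80 against 4.70 to 5.32 in the other 4 arrays, and its member median of 12.29 was the highest of the 5; the part of RNA length in these values was not tested. Without it 18, 28 and 24 members were called in neurons, astrocytes and cortical Olig2 cells against cortex, beside 15, 27 and 22 with it. It was high for Uqcrh (0.92 of the range, 12.31 against 11.32 to 11.40), Ndufa6 (0.839), Ndufa3 (0.83), Ndufc1 (0.802), Ndufb2 (0.776, 9.82 against 9.39 to 9.49), Atp5e (0.775) and Atp5j2 (0.734), and low for Ndufa10 (0.767) and Ndufv3 (0.721). Replicate 3 was high for Atp5g1 (0.796, 7.88 against 6.87 to 7.07), and replicate 1 for Ndufa2 (0.736).

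The difference between bound and total RNA was itself compared between tumour models with an interaction term in limma, and members are listed whose interaction passed an adjusted p of 0.05 and 2-fold. In Pdgf Cre against Pdgf tumours 2 members did (12.3% of all genes): Uqcrq differed by 1.60 on the log2 scale and Sdhc by -1.75. In Recruited against Pdgf tumours 10 did (30% of all genes). The bound minus total difference was higher in Recruited tumours for Uqcrq (1.89), Cox7a1 (1.89), Ndufb2 (1.67), Uqcrc1 (1.52) and Ndufc2 (1.11). It was lower for Cox8a (-2.71), Sdhc (-2.43), Atp5g1 (-1.70), Cox7a2l (-1.51) and Cox6b2 (-1.43). In Recruited against Pdgf Cre tumours 7 did (26.7% of all genes). It was higher for Ndufb2 (2.61), Ndufa2 (1.25), Ndufb3 (1.25), Cox7a1 (1.08) and Ndufc2 (1.01) and lower for Cox8a (-3.76) and Cox6b2 (-1.45). Cox8a combined bound values of 6.24, 6.75 and 6.95 with total values of 6.14, 5.67 and 6.61 in Recruited tumours, whereas in the other models total RNA was dim. The values of Cox8a, Cox6b2, Cox7a1, Atp5g1 and Ndufb2 are not sizes of a difference, because at least 1 of the 4 groups in each was dim: total RNA of Pdgf and Pdgf Cre tumours for Cox8a, all total RNA and Recruited bound RNA for Cox6b2, Recruited total RNA for Ndufb2, and most groups for Cox7a1 and Atp5g1. The comparisons share arrays with each other.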

How the results depend on the processing

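No named difference changed direction under any alternative run. The call rule moved the counts most: with the adjusted p of limma alone, in place of a 2-fold limit as well, against cortex 48 members passed in neurons, 48 in cortical Olig2 cells, 60 in astrocytes, 49 in progenitors and 44 in mature oligodendrocytes, 32 in astrocytes and 56 in mature oligodendrocytes against neurons, and 31 in progenitors against mature oligodendrocytes. It passed 28, 25 and 34 in Pdgf, Pdgf Cre and Recruited Olig2 cells against cortical ones, 53, 54 and 56 in bound against total RNA, 37, 38 and 55 in tumour total RNA against cortex, and 18, 34 and 43 in Pdgf Cre against Pdgf, Recruited against Pdgf and Recruited against Pdgf Cre. Deposited values gave 60 in neurons and 47 in astrocytes against cortex, 51 in mature oligodendrocytes against neurons, 14 in progenitors against mature oligodendrocytes, 2 in Recruited against cortical Olig2 cells, 25 in Pdgf Cre bound against total RNA and 3 in Pdgf Cre against Pdgf. Spike-in scaling gave 34, 16, 7, 33 and 22 in neurons against cortex, progenitors against mature oligodendrocytes, Pdgf Cre against cortical Olig2 cells, Pdgf Cre bound against total RNA and Recruited against Pdgf Cre. Leaving out 1 array gave 1 to 6 in Recruited against cortical Olig2 cells, the lowest without Recruited Olig2 replicate 2 and the highest without cortical Olig2 replicate 3, and 4 to 8 in Recruited against Pdgf Olig2 cells, the lowest without Pdgf Olig2 replicate 1; the other 18 counts kept within 1.5 times. Of 135 named differences 14 missed a threshold on deposited values, 11 with spike-in scaling and 2 with only the groups compared, and 25 did in refits without 1 array, where 925 did not. With the replicate block for the tumour pairs (consensus correlation 0.273) all 135 held, and the pairing moved no count by over 1.5 times. Arrays that were summarised group by group leave the level between groups to the scaling chosen, and background correction and slide could not be varied on deposited values.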

Other observations

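Regulators of mitochondrial genes moved in both directions. Of 10 tested, 2 were higher and 3 lower in mature oligodendrocytes against neurons, and 3 and 2 in Recruited bound against total RNA. These shares, 20% and 30% and then 30% and 20%, were close to those of all genes (23.3% and 27.6%, then 24.1% and 20.2%). Ppargc1a, a coactivator of mitochondrial genes, read 10.84 in cortex total RNA, 6.66 in mature oligodendrocytes, 8.58 in Pdgf Cre Olig2 cells, 4.22 in Pdgf Olig2 cells and 2.66 in Recruited Olig2 cells, the last 2 below the dim limit. The array medians of the respiratory chain genes were 12.56 to 12.83 in Pdgf Olig2 cells and 11.88 to 12.29 in cortex. No relation between these medians and Ppargc1a was tested. Its relative Ppargc1b read 9.42 in cortex and 6.28 in neurons. Nrf1 read 2.27 in cortex, 3.58 in neurons and 5.54 in astrocytes, all under the dim limit, and 6.69 in Pdgf Cre Olig2 cells. Suclg2, a subunit of succinyl-CoA synthetase in the tricarboxylic acid cycle, stood at 12.45 in astrocytes and 6.41 in neurons. These genes were named after their values were seen.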
